A study of Mus musculus with 2 samples.

Results

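The 10 genes described here code for receptors, ligands and targets of the Notch pathway. They comprise the 4 Notch receptors (*Notch1*, *Notch2*, *Notch3* and *Notch4*), 3 ligands (*Dll1*, *Dll4* and *Jag1*) and the 3 targets of the Hey family (*Hey1*, *Hey2* and *Heyl*). They are a list of names, taken by role from 21938 protein-coding genes of the GENCODE M21 annotation of GRCm38/mm10. The rule uses no measured value, but the list was made with earlier results of these data known. Accessible DNA was mapped by ATAC-seq, in which a transposase cuts open chromatin and inserts sequencing adapters, in whole hearts of wildtype FVB mouse embryos at E11.5. The samples form 1 group of 2 replicates, each made from 2 hearts, so no condition was compared with another and no test between groups was possible. Peaks were called by the authors in each replicate, and a shared region is the part of a replicate 1 peak that a peak of replicate 2 covers. Of 98924 shared regions in the genome, 135 fall in the loci of the 10 genes, a locus being the gene body with 50 kb on each side.

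Notch signalling passes between cells that touch. A ligand of the Delta or Jagged type on a cell binds a Notch receptor on its neighbour, the receptor is cut by ADAM proteases and gamma-secretase, and its intracellular domain enters the nucleus and binds the DNA-binding protein RBPJ to switch on targets, among them the transcriptional repressors of the Hes and Hey families. In the developing heart the pathway acts mainly in the endocardium and its derivatives, where it is known for its part in trabeculation, in the formation of the valves from endocardial cushions, and in the coronary arteries, and Hey genes also mark chamber myocardium.

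The fold enrichment of a peak is the authors' value at its summit, the number of reads plus 1 over a genome-wide background plus 1. Replicate 1 had a background of 2.68 reads and replicate 2 of 2.98, and with these all fold enrichments gave whole reads within 0.05, so the reads behind each value are known and carry an exact Poisson interval of 95%, which covers counting error only. The 118027 peaks of replicate 1 had a median fold enrichment of 5.70, and the 114783 of replicate 2 had 5.03. Marker genes of the cell types of a heart had shared regions at their starts (7 of 7 for cardiomyocytes, 5 of 5 for endothelium and endocardium, 3 of 3 for epicardium), as did 3 of 3 for blood, 1 of 3 for skeletal muscle (*Myod1*) and 0 of 2 for liver, beside 67.6% of all protein-coding genes, so full counts of so few genes do not set these lists apart. In whole hearts, a site open in few cells and a site partly open in many cannot be told apart.

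All 10 genes had a shared region within 1 kb of an annotated start, where 67.6% of protein-coding genes had one. Over single starts, a region lay at 30 of 46 starts of the 10 genes against 58.0% of all annotated starts. By role, starts with a region were 14 of 27 for the receptors, 7 of 10 for the ligands and 9 of 9 for the Hey genes. Starts close together can share a region. The receptors, ligands and Hey genes had 8, 5 and 5 start regions in all, so the starts are not independent units. Of the 16 starts without a region, 13 belong to the receptors, and 1 of all 16 is the start of a protein-coding transcript.

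**Figure D1:**
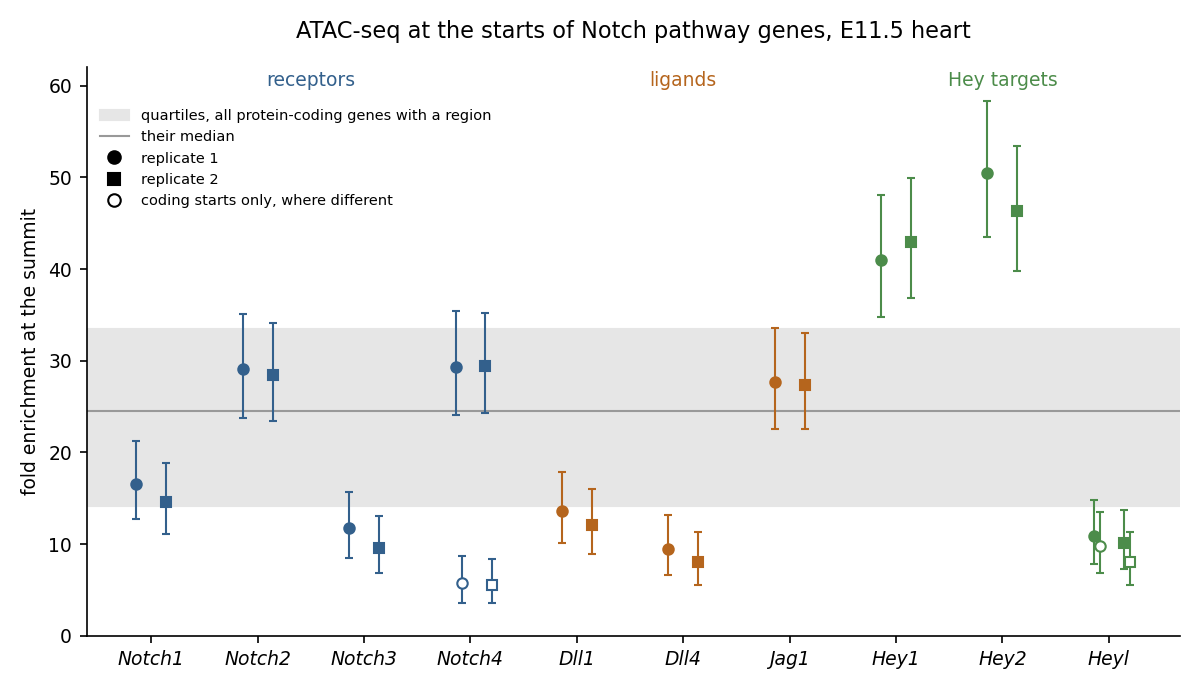
Fold enrichment at the summit of the highest shared region within 1 kb of a start, for each gene (x axis) in replicate 1 (circles) and replicate 2 (squares), with exact Poisson intervals of 95%. Open symbols give the value at coding starts where it differs, and the grey band and line give the quartiles (14.2 and 33.5) and median (24.5) of all 14820 protein-coding genes with a region. *Hey1* and *Hey2* lie above the band in both replicates, and the coding start of *Notch4* lies at 5.70 and 5.53.

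Among the receptors, *Notch2* had its region right at the start. *Notch2* is expressed in endocardium-derived mesenchyme and smooth muscle as well as in many other tissues. The region chr3:98012983-98014342 covers its coding start at a fold enrichment of 29.1 in replicate 1 (106 reads, interval 86.8 to 128) and 28.4 in replicate 2 (112 reads, 92.2 to 135). Both values lie above the median of all genes with a region at a start, which was 24.4 in replicate 1 and 24.6 in replicate 2.

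*Notch1*, the main receptor of the endocardium, was lower. Its region chr2:26503231-26504357 covers the coding start at position 26503822 with 16.6 in replicate 1 (60 reads, 45.8 to 77.2) and 14.6 in replicate 2 (57 reads, 43.2 to 73.9). The outermost coding start, at 26516663, had a smaller region with 7.06 and 6.03. The intervals of *Notch1* and *Notch2* did not overlap in either replicate. The 8 starts of *Notch1* without a shared region all belong to noncoding transcripts within the gene.

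*Notch3*, the receptor known from vascular smooth muscle and pericytes, had a region of 408 bp at its outermost coding start (chr17:32166703-32167110). It reached 11.7 in replicate 1 (42 reads, 30.3 to 56.8) and 9.55 in replicate 2 (37 reads, 26.1 to 51.0). A neighbouring region, chr17:32165579-32166413, lies within the gene and had 10.1 and 8.04. The internal coding start of *Notch3* at 32137825 was without a shared region and is the only coding start of the 10 genes of which this holds.

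*Notch4*, a receptor of endothelial cells, gave the widest gap between its starts. Its highest region, chr17:34586408-34588336, had 29.3 in replicate 1 (107 reads, 87.7 to 129) and 29.4 in replicate 2 (116 reads, 95.9 to 139). That region lies 23.1 kb from the coding start, close to the 3′ end of the gene, where 4 noncoding transcripts begin within 1 kb of it. At the coding start, the region chr17:34564174-34564716 had 5.70 in replicate 1 (20 reads, 12.2 to 30.9) and 5.53 in replicate 2 (21 reads, 13.0 to 32.1), and its replicate 1 value belongs to a summit in the adjoining region chr17:34564781-34565124, which had 5.03 in replicate 2. By its coding start *Notch4* was at percentile 5.31 of all genes with a region at a coding start, the lowest of the 10.

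Of the ligands, *Jag1* stood well above *Dll1* and *Dll4*. *Jag1*, the Jagged ligand whose human counterpart is mutated in Alagille syndrome, had a region of 4584 bp at its coding start (chr2:137113424-137118007), with 27.7 in replicate 1 (101 reads, 82.3 to 123) and 27.4 in replicate 2 (108 reads, 88.6 to 130). It was the longest start region of the 10 genes, whose median summed length was 2184 bp against 1524 bp for all genes with a region at a start. A noncoding start near the 3′ end of *Jag1* had a second region at 6.25 and 5.78.

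*Dll1*, a Delta ligand, had a region of 2477 bp over both of its coding starts (chr17:15374784-15377260). It reached 13.6 in replicate 1 (49 reads, 36.3 to 64.8) and 12.1 in replicate 2 (47 reads, 34.5 to 62.5). *Dll4*, the Delta ligand of arterial endothelium and early endocardium, was lowest of all by its highest region. Its region chr2:119325239-119326487 had 9.51 in replicate 1 (34 reads, 23.5 to 47.5) and 8.04 in replicate 2 (31 reads, 21.1 to 44.0). A second region of *Dll1*, at a noncoding start inside the gene, had 6.52 and 6.28. The intervals of *Dll1* and *Dll4* overlapped in both replicates, and neither overlapped that of *Jag1*.

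The Hey genes held both the highest values and one of the lowest. *Hey2*, a repressor of compact ventricular myocardium, had 50.5 in replicate 1 (185 reads, 159 to 214) and 46.3 in replicate 2 (183 reads, 157 to 212) in the region chr10:30841978-30844791. *Hey1*, its relative known from atrial myocardium and endocardium, had 41.0 (150 reads, 127 to 176) and 43.0 (170 reads, 145 to 198) in chr3:8666239-8668359. A second region of *Hey1* within 1 kb of its internal noncoding starts, chr3:8665427-8666067, had 8.96 in replicate 1 and takes its replicate 2 value from the peak at the coding start. Against all genes with a region at a start, *Hey2* was at percentile 97.6 in replicate 1 and 95.6 in replicate 2, and *Hey1* at 89.0 and 92.8. The order of *Hey1* and *Hey2* rests on intervals that overlapped in both replicates.

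*Heyl*, known from smooth muscle and its progenitors, lay far below. At its coding start the region chr4:123233454-123234059 had 9.78 in replicate 1 (35 reads, 24.4 to 48.7) and 8.04 in replicate 2 (31 reads, 21.1 to 44.0). A noncoding start inside the gene had a slightly higher region, chr4:123239321-123240154, with 10.9 and 10.1 (39 reads in each, 27.7 to 53.3). The intervals of *Heyl* were below and apart from those of *Hey1* and *Hey2* in both replicates.

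Ordered by the mean of both replicates, the genes ran *Hey2* (48.4), *Hey1* (42.0), *Notch4* (29.4), *Notch2* (28.7), *Jag1* (27.6), *Notch1* (15.6), *Dll1* (12.8), *Notch3* (10.6), *Heyl* (10.5) and *Dll4* (8.78). Of the neighbours in this order, those whose intervals were apart in both replicates were *Jag1* and *Notch1* alone, and *Hey1* and *Notch4* were apart in replicate 2 only. Over all 45 pairs, 29 were apart in both replicates and 14 in neither. The same was not counted over pairs of all protein-coding genes, so these numbers do not set the 10 genes apart. The 5 genes above the gap between *Jag1* and *Notch1* were 2 of 3 Hey genes, 2 of 4 receptors and 1 of 3 ligands. *Notch4* is among them only by its noncoding starts.

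**Figure D2:**
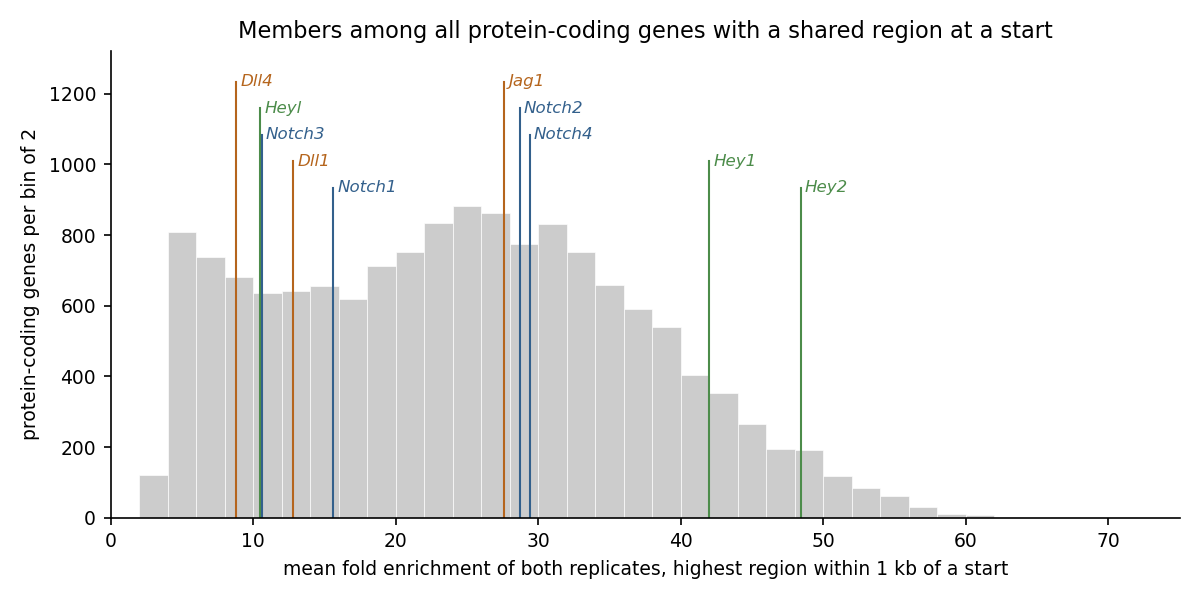
Number of protein-coding genes (y axis) by the mean fold enrichment of both replicates at their highest start region (x axis, bins of 2), with the 10 genes marked by lines whose colours give receptors (blue), ligands (brown) and Hey genes (green). *Hey1* and *Hey2* stand in the upper tail, 3 genes lie between 27.6 and 29.4, and 5 lie between 8.78 and 15.6; the line of *Notch4* is its noncoding start.

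By role, the median of the mean fold enrichment was 42.0 for the Hey genes, 22.2 for the receptors and 12.8 for the ligands. The same order held in replicate 1 (41.0, 22.8 and 13.6) and in replicate 2 (43.0, 21.5 and 12.1). The ranges of the roles overlapped, from 10.5 to 48.4 for the Hey genes, 10.6 to 29.4 for the receptors and 8.78 to 27.6 for the ligands. At coding starts alone the receptor median was 13.1, close to the 12.8 of the ligands, since *Notch4* had 5.62 there. The median over all 10 genes was 21.6, or 14.2 at coding starts, where all protein-coding genes with a region had 24.5 by either measure.

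Promoter base composition was set beside these values. RefSeq promoters of GRCm38.p6, 250 bases before to 50 after a start, were matched for 8 of the 10 genes (9 promoters, 2 of them of *Dll1*), and all 9 equal the reference genome; *Hey1* and *Heyl* have no entry in the table used. Across 20150 promoters ranked by their ratio of observed to expected CpG and cut into 4 bins of about equal size, a shared region lay on 12.9% of the lowest bin, 54.8% of the second, 91.5% of the third and 95.3% of the highest, with median fold enrichments of 9.43, 16.9, 26.8 and 29.4. Across the 12814 promoters with a region, Spearman's rho of the ratio with fold enrichment was 0.373, a description over genes that share their libraries.

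The CpG ratio was 1.04 for *Notch2*, the highest of the 9 promoters, and 0.214 for *Notch4*, the lowest, against a median of 0.588 over all promoters. *Notch2* and *Notch4* are shown for this contrast, with every CpG in capitals, 41 in the first and 5 in the second.
*Notch2* promoter, chr3:98013288-98013587, plus strand: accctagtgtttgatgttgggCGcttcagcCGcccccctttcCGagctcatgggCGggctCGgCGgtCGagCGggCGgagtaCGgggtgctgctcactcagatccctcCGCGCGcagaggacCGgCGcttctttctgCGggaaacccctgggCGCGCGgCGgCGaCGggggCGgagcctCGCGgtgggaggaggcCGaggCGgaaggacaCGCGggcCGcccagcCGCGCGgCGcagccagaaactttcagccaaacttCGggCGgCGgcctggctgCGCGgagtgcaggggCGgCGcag
*Notch4* promoter, chr17:34564045-34564344, plus strand: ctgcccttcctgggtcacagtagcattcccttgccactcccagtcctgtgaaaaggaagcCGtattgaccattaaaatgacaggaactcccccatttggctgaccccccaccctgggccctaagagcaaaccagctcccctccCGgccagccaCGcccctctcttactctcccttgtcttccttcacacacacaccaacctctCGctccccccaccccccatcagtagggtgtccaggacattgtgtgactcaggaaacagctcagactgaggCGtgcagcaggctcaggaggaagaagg
The shared region covered all 300 bases of the *Notch2* promoter and 171 of the *Notch4* promoter, beside mean fold enrichments of 28.7 and 5.62. Of the rest, *Jag1* had 0.959, *Dll1* had 0.822 and 0.635 at its RefSeq starts, *Hey2* had 0.746, *Notch3* had 0.706, *Notch1* had 0.660 and *Dll4* had 0.595. The order of these ratios was not that of fold enrichment, since a promoter of *Dll1* was above that of *Hey2*, at a far lower fold enrichment.

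The *Hey2* promoter was the only one of the 9 with the RBPJ core TGGGAA, searched on both strands and present in 24.3% of all promoters. It is printed with its matches in capitals, the first reading on the other strand.
*Hey2* promoter, chr10:30842734-30843033, minus strand: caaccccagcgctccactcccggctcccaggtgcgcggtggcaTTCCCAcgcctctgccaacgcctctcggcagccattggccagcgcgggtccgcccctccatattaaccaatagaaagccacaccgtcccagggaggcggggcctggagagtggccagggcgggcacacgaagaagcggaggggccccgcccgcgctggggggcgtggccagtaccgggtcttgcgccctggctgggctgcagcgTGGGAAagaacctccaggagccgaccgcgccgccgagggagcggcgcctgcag
The first bases of the matches lie 207 and 3 bases before the RefSeq start at chr10:30842783. A variant of the core, TGAGAA, which 18% of promoters hold, occurred once, 242 bases before the RefSeq start of *Jag1*. No promoter of the 8 genes had cores facing each other with 15 to 18 bases between them, an arrangement in 0.114% of promoters. These are matches of letters and not measured binding.

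Around the genes, the 135 shared regions of the 10 loci numbered 9.99 per 100 kb over 1351 kb. A protein-coding gene had a median of 7 regions in its locus (quartiles 3 and 12) and of 5.41 per 100 kb (quartiles 2.42 and 8.95). All 10 loci were above the latter median, from 7.30 per 100 kb for *Dll1* to 16.3 for *Heyl*. Regions that share a peak in either replicate are counted apart here, and counted once they number 115.

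**Figure D3:**
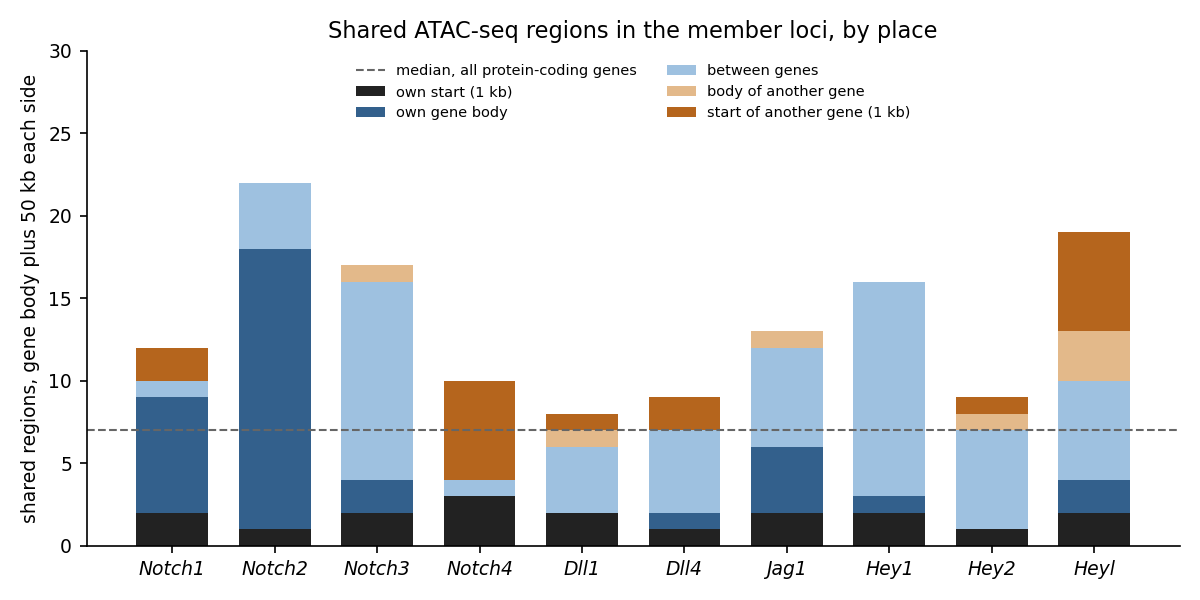
Shared regions in the locus of each gene (gene body plus 50 kb on each side), stacked by place, with a dashed line at the median of 7 regions over all protein-coding genes. The regions of *Notch2* lie mostly in its own gene body, those of *Hey1* and *Notch3* mostly between protein-coding genes, and those of *Notch4* mostly at the starts of other genes.

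By place, 18 regions were at starts of the gene itself, 34 in its body, 58 between genes, 18 at the start of another protein-coding gene and 7 in the body of another gene. Throughout, between genes and away from starts refer to protein-coding genes, and noncoding genes were not considered. A region in the gene body outside the own start windows was present in 7 of 10 genes, where 42.4% of all protein-coding genes had one. Those without were *Notch4*, *Dll1* and *Hey2*. The bodies ran from 3.9 kb for *Hey1* to 137 kb for *Notch2*, and the part of gene length in this was not tested.

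By role, the receptors had 61 regions over 666 kb (9.16 per 100 kb), of which 26 were in their own bodies and 18 between genes. The ligands had 30 over 355 kb (8.45 per 100 kb), with 5 in their bodies and 15 between genes. The Hey genes, with 44 over 331 kb, had 13.3 per 100 kb, with 3 in their bodies and 25 between genes. The gene bodies, starts included, sum to 266 kb for the receptors, 54.9 kb for the ligands and 30.7 kb for the Hey genes, with 12.8, 18.2 and 26.1 regions per 100 kb, and the body counts of the roles are to be read against these lengths. The order of the densities depends on the flanks, since with 25 kb on each side the ligands had 12.7 per 100 kb, the Hey genes 11.1 and the receptors 10.5. Densities of single genes overlapped between the roles, at 7.56 to 11.6 for receptors, 7.30 to 9.62 for ligands and 8.15 to 16.3 for Hey genes.

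**Figure D4:**
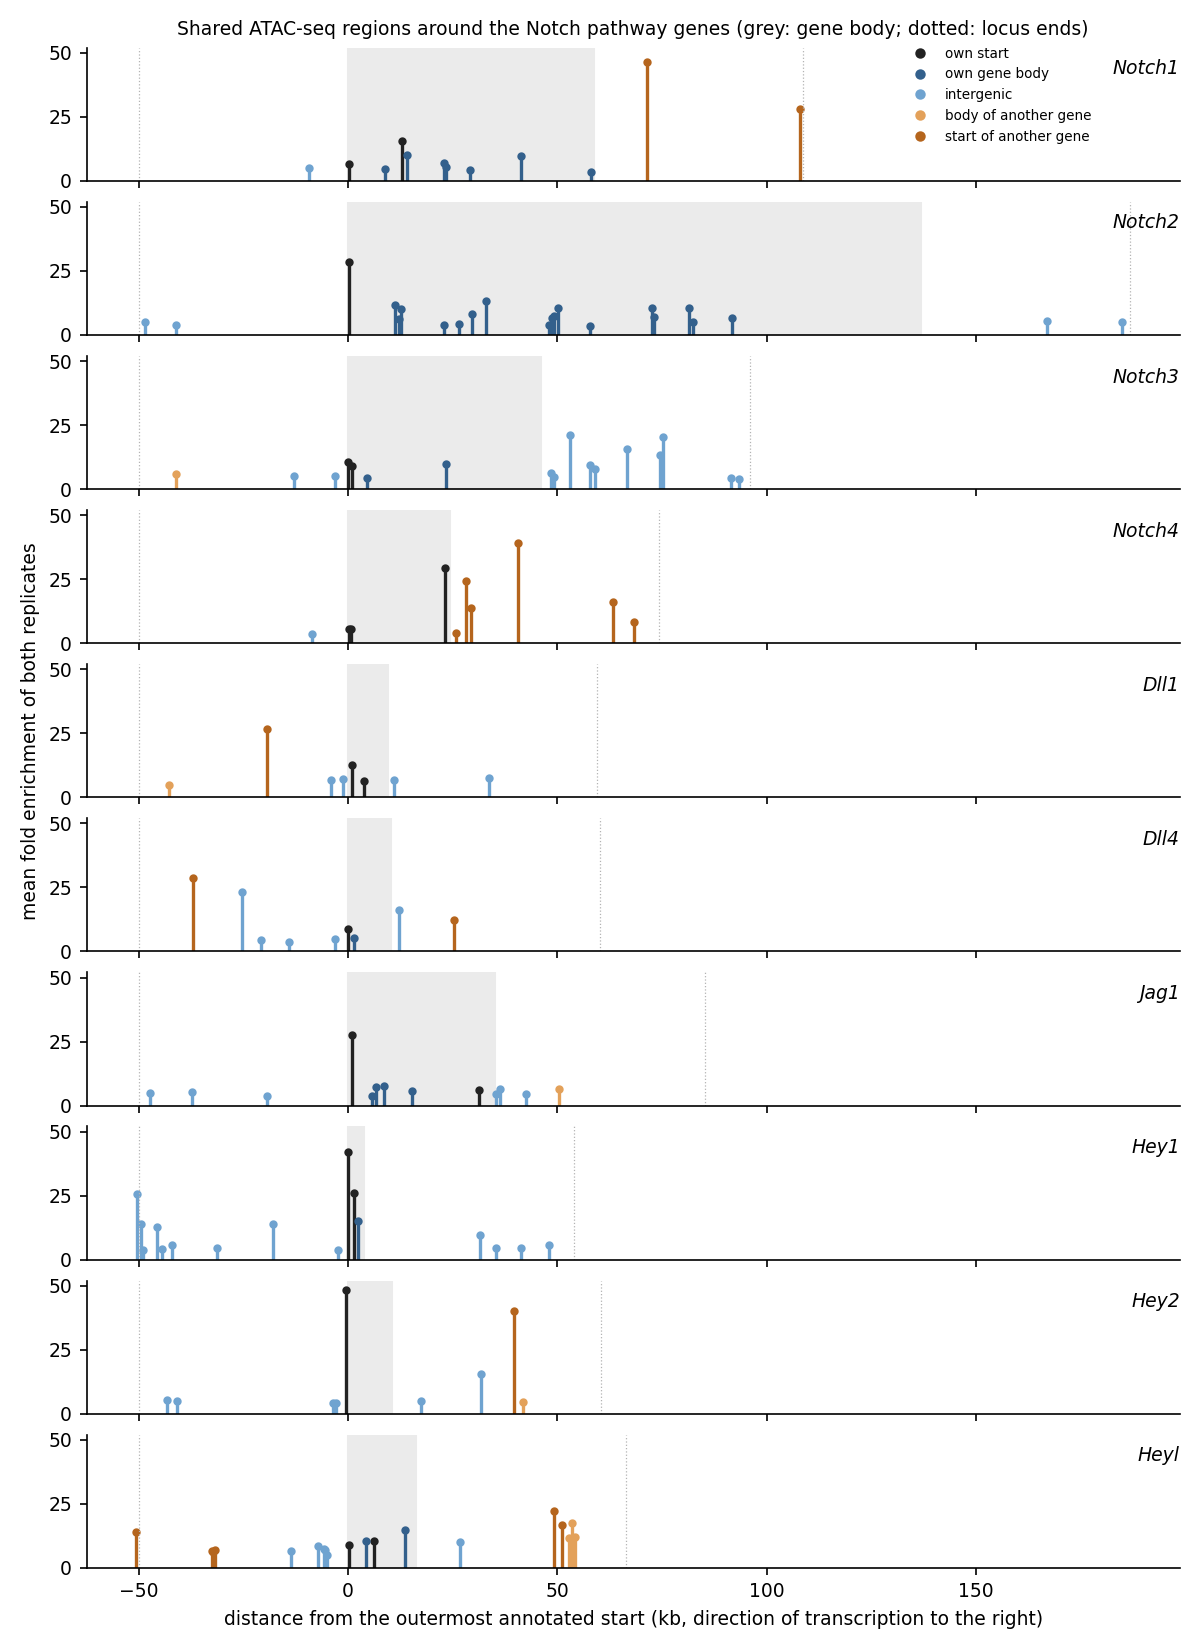
Shared regions of each locus by distance from the outermost annotated start in kb (x axis, transcription to the right) and mean fold enrichment of both replicates (y axis). Shading marks the gene body and dotted lines the locus ends. Regions fill the first part of the *Notch2* body, gather beyond the 3′ end of *Notch3*, and stand at the upstream edge of the *Hey1* locus.

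*Notch2* had 22 regions, and 17 of them lay in introns outside its start. They stand 11.1 to 91.7 kb downstream of the start, and the last part of the body, which is 137 kb long, had none. The highest, chr3:98046227-98046725, had 15.2 in replicate 1 and 11.1 in replicate 2, followed by chr3:98024340-98025005 with 12.5 and 11.1 and chr3:98063026-98064336 with 11.4 and 10.1.

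*Notch3* showed the reverse layout, with 2 regions in its body outside the start and 10 between genes beyond its 3′ end. The highest of the locus was one of these, chr17:32113009-32114699, 53.0 kb downstream of the start, with 19.8 in replicate 1 (72 reads, 56.3 to 90.7) and 22.1 in replicate 2 (87 reads, 69.7 to 107). Its intervals in reads did not overlap those of the *Notch3* start in replicate 2 and met them narrowly in replicate 1. Next came chr17:32091131-32091942 with 19.0 and 21.9, nearer to a start of *Rrp1b* than of *Notch3*, and chr17:32099693-32100789 with 13.9 and 17.3.

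In the *Notch1* locus 7 of 12 regions were in the gene body outside the start windows. The highest of them by its own summits, chr2:26474940-26475629, is in an intron and had 11.7 and 7.79, and chr2:26493470-26493842, also intronic, had 7.33 and 6.79. A region close to the start, chr2:26502433-26502733, is listed at 16.6 and 4.02, but its replicate 1 value belongs to the summit at the start. The highest region of the locus was at the start of *Sec16a*, a neighbour, with 47.3 and 46.0.

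*Notch4* lies among 9 other protein-coding genes, and 6 of its 10 regions were at their starts. The highest was shared by *Agpat1* and *Rnf5*, with 40.5 and 38.2. The only region of this locus away from every start of a protein-coding gene, chr17:34555545-34555830, was weak at 3.80 (13 reads, 6.92 to 22.2) and 3.27 (12 reads, 6.20 to 21).

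*Dll4* had 9 regions, 5 of them between genes. The region chr2:119299836-119301133, 25.3 kb upstream, had 23.6 in replicate 1 (86 reads, 68.8 to 106) and 22.9 in replicate 2 (90 reads, 72.4 to 111). Both intervals lie above those of the *Dll4* start. The region is nearer to a start of *Vps18*, whose own start was the highest region of the locus with 26.6 and 30.7. Another, chr2:119337679-119338330, 12.2 kb downstream of the start and just past the gene, had 16.6 and 15.3 (60 reads in each, 45.8 to 77.2), and the third, chr2:119326915-119327466, inside the gene over coding sequence, had 5.70 and 5.03.

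*Dll1* had 8 regions and none away from starts that passed 10. The highest of these were chr17:15343156-15343466 with 8.42 and 6.79, chr17:15377916-15378244, 1.21 kb upstream of the outermost start, with 7.88 and 6.54, and chr17:15380602-15381335 with 7.88 and 5.78. The highest region of the *Dll1* locus was the start of *Fam120b*, with 27.4 and 25.9.

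*Jag1* had 13 regions, 4 of them intronic. The highest away from the starts were chr2:137107826-137108310 with 8.96 and 6.28 and chr2:137109841-137110281 with 8.15 and 6.03, both in introns, and chr2:137079802-137080916, beyond the 3′ end, with 7.61 and 5.53. All 3 lay far below the *Jag1* start. Without a limit on distance, 39 shared regions had *Jag1* as the nearest protein-coding start, the most of the 10 genes, followed by 28 for *Hey1*. Such a count depends on how far the neighbouring genes lie, and it was not set beside that of all protein-coding genes.

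*Hey1* had no other protein-coding gene in its locus, and 13 of its 16 regions lay between genes, 9 upstream and 4 downstream. The strongest was chr3:8717120-8718448, 50.5 kb upstream and across the edge of the locus, with 27.4 in replicate 1 (100 reads, 81.4 to 122) and 23.6 in replicate 2 (93 reads, 75.1 to 114). The region chr3:8664442-8665134, over coding and untranslated sequence of *Hey1*, had 14.1 and 15.6, and chr3:8684840-8685737, 18 kb upstream, had 13.9 and 14.1. A narrow region beside the strongest, chr3:8716744-8717018, had 4.35 in replicate 1 and takes its replicate 2 value of 23.6 from the same peak.

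*Hey2* had 9 regions, and its start was the highest of the locus. The start of *Ncoa7* followed with 41.0 (150 reads, 127 to 176) and 39.5 (156 reads, 132 to 182). Its intervals overlapped those of the *Hey2* start in both replicates. The highest region of the *Hey2* locus away from starts was chr10:30810788-30811255, 31.8 kb downstream of the *Hey2* start and nearer to *Ncoa7*. It had 15.8 (57 reads, 43.2 to 73.9) and 15.3 (60 reads, 45.8 to 77.2). The next, chr10:30885975-30886249 with 6.25 and 4.53 and chr10:30825173-30825392 with 5.70 and 4.53, had means below the median of 5.74 of such regions in the genome.

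*Heyl* had 19 regions, at 16.3 per 100 kb the densest locus of the 10. With regions of a shared peak counted once, 12 remain (10.3 per 100 kb), and *Hey1* is then the densest with 14 (13.5 per 100 kb). Several lie in or at the start of *Pabpc4*, at the downstream end of the locus, whose start was the highest region of the locus with 23.4 and 21.1. Away from starts the highest was chr4:123286754-123287339, in the body of *Pabpc4*, with 16.6 and 18.9, followed by chr4:123246859-123247662 over untranslated sequence of *Heyl* with 16.3 and 12.8. The region chr4:123287579-123287948 had 4.89 in replicate 1 and takes its replicate 2 value of 18.9 from the peak of the first.

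Away from every start of a protein-coding gene, 99 regions of the 10 loci had a median mean fold enrichment of 6.13, against 5.74 for 78093 such regions in the genome. The median was 6.91 for the Hey loci, 6.13 for the receptors and 5.43 for the ligands. A mean of at least 10, a limit set after the values were seen, was reached by 11 of 32 regions in the Hey loci, 11 of 45 in the receptor loci and 2 of 22 in the ligand loci, beside 16.3% of all such regions. With the regions left out whose value comes from a summit outside them, the counts were 8 of 28, 9 of 35 and 2 of 20, beside 16.8%.

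The sequence around the replicate 1 summit of the highest region away from starts is shown for 8 of the genes, 120 bases on the plus strand of GRCm38, so that the letters of distal sites can be seen beside their values. For *Notch1* the second is shown, since the window of the first touches untranslated sequence. Capitals mark matches on either strand to the RBPJ core TGGGAA, its variant TGAGAA, the GATA motif AGATAA, the TEAD motif GGAATG, the T-box motif AGGTGT and the E-box CACGTG.
*Notch1* window, chr2:26475198-26475317: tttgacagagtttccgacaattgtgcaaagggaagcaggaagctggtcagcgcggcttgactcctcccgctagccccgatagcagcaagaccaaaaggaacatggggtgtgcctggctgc
*Notch2* window, chr3:98046419-98046538: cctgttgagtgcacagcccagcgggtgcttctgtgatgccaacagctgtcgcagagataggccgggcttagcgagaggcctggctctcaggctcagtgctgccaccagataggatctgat
*Notch3* window, chr17:32113666-32113785: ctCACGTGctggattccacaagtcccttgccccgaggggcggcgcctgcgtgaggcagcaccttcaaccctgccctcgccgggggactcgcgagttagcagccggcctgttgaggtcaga
*Dll1* window, chr17:15343248-15343367: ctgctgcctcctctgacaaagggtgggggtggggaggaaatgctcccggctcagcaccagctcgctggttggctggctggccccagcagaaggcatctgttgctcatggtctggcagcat
*Dll4* window, chr2:119300305-119300424: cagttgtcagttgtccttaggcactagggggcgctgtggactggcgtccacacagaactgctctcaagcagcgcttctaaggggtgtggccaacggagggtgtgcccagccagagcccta
*Jag1* window, chr2:137108094-137108213: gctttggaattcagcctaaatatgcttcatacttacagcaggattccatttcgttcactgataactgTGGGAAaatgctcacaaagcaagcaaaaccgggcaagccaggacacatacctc
*Hey2* window, chr10:30810936-30811055: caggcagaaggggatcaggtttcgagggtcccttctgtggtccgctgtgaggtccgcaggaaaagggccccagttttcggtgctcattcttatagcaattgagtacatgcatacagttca
*Heyl* window, chr4:123286891-123287010: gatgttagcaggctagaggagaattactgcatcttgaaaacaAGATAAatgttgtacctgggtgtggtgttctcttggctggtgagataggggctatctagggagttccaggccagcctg
Of these 8 windows, that of *Jag1* holds an RBPJ core, that of *Notch3* an E-box and that of *Heyl* a GATA motif, and the other 5 hold none of the motifs searched. For the *Dll1* region 1.21 kb upstream of the start, chosen after its letters were seen, the window holds an RBPJ core and matches to the variant on both strands.
*Dll1* window, chr17:15378117-15378236: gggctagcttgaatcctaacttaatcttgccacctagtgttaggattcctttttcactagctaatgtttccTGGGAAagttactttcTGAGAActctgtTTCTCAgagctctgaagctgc

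For the regions away from starts in the 10 loci, with regions of a shared replicate 1 summit counted once, 19 of 95 windows had the RBPJ core TGGGAA, beside 12.2% of 75675 such windows in the genome. The variant TGAGAA was in 13 windows (13.7% beside 10.3%), and the E-box in 5 (5.26% beside 2.15%). GATA was in 7 windows (7.37% beside 13.5%), TEAD in 8 (8.42% beside 10.4%) and T-box in 3 (3.16% beside 5.40%). None of these differences in share was tested. A window follows the replicate 1 summit also where that summit lies outside its region, and so the window of the *Notch1* region chr2:26502433-26502733 lies on the coding start of *Notch1*. No window had cores facing each other at the spacing given above, which 0.0463% of all such windows had.

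Across the 135 regions Spearman's rho between replicates was 0.685, a description over regions that share libraries and in part peaks. By locus it ran from 0.493 for *Heyl* and 0.512 for *Notch3* to 0.970 for *Dll4*. In all, 22 regions had a value from a summit outside them in at least 1 replicate. Peaks without a partner numbered 30 in replicate 1 and 27 in replicate 2, and none of them exceeded 5.98. The highest start region of each of the 10 genes was above that value in both replicates, and the coding start of *Notch4* was below it.

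**Figure D5:**
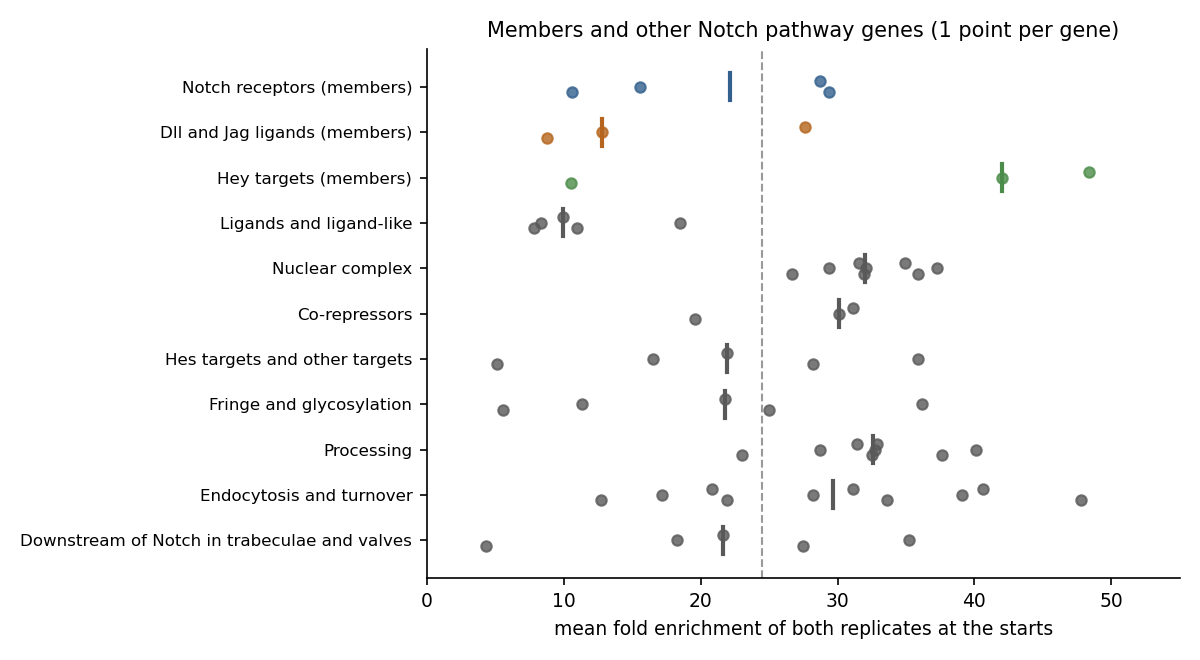
Mean fold enrichment of both replicates at the starts (x axis) for the 10 genes by role (coloured) and for the 49 other pathway genes with a region by group (grey), 1 point per gene, with bars at group medians and a dashed line at the median of 24.5 over all protein-coding genes with a region. The machinery of the pathway (nuclear complex and processing) lies mostly right of the line, and ligands lie left of it except *Jag1*.

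Other genes of the pathway, 52 listed by role, had a shared region at a start in 49 cases, beside 67.6% of all protein-coding genes. The difference was not tested. *Hes2*, *Hes3* and *Dtx1* had none. The median mean fold enrichment of the 49 was 28.2, above the 21.6 of the 10 genes described and the 24.5 of all genes with a region. The highest were *Numb*, an inhibitor of Notch signalling, with 49.4 and 46.3, *Fbxw7*, which turns over the cleaved receptor, with 40.2 and 41.0, the protease *Adam17* with 37.8 and 42.5, the ligand ubiquitin ligase *Mib2* with 39.4 and 38.7, and the protease *Adam10* with 37.8 and 37.5.

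By group, the medians were highest for receptor processing and the nuclear complex. The 8 genes of the nuclear complex had a median of 32.0 (26.7 to 37.3), with *Rbpj* itself at 32.1 and 32.2, and the 8 genes of receptor processing had 32.6 (23.0 to 40.1). The 11 genes of endocytosis and turnover had a median of 29.7 over the 10 with a region, and the 3 co-repressors had 30.1. Lower medians were found for the 7 Hes and other targets (21.9 over 5), the 5 genes of fringe and glycosylation (21.8) and the 5 genes downstream in trabeculae and valves (21.6).

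The 5 further ligands and ligand-like genes were lowest, with a median of 9.94 and a range of 7.80 to 18.5. Of the 8 ligand genes of both lists, 6 were below the first quartile of all genes with a region (14.2), *Dner* lay between it and the median, and *Jag1* was above the median. Among the targets, *Hes1*, the Hes gene most widely used by Notch, had 27.4 and 28.9, whereas *Hes5* had 5.98 and 4.27. The Hey family likewise had genes above the median of all genes (*Hey1* and *Hey2*) and a gene below the first quartile (*Heyl*). Downstream in the ventricle, *Efnb2* had 36.9 and 33.4 and *Bmp10* had 4.62 and 4.02.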

How the data were processed

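Per the study's methods and the submitters' processing notes, the authors trimmed single-end reads of 2 libraries with Trim Galore 0.6.6, mapped them to GRCm38/mm10 with Bowtie2 2.4.2, used SAMtools 1.12 to drop duplicates and poorly mapped reads, and ran MACS2 on each replicate by itself without a local background. The embryos were FVB and the reference is another strain, and sites in repeated sequence are underrepresented. The deposited lists hold fold enrichment, a ratio at each summit, −log10 p and −log10 q values at the summit, and a score that is the −log10 q times 10 as a whole number. They hold no read totals. The largest p-values and shortest peaks differ from the limits given in the methods. No peak was left out on that ground.

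Shared regions needed an overlap of at least 1 bp and were merged where they touch. A region took the highest fold enrichment of its peaks in each replicate, so regions that share a wide peak can carry 1 summit. Starts were those of all GENCODE M21 transcripts with 1 kb on each side, and coding starts those of protein_coding transcripts. Reads at a summit were recovered from the fold enrichment. As the 2 samples are 1 group, genes were described beside all protein-coding genes, with no test. The genes and the lists of other pathway genes and markers were chosen with earlier results of these data known. The text names each gene's start regions, the highest region of its locus, the 3 highest away from all starts, and, of the other pathway genes, those without a region and the 5 highest; it also names *Rbpj*, *Hes1*, *Hes5*, *Dner*, *Efnb2* and *Bmp10*, chosen after their values were seen. Promoters came from RefSeq (GRCm38.p6). The neural marker list and some sequence windows are not reported here. Alternatives were stricter q and p limits, a reciprocal overlap of 50%, each replicate alone, other windows and flanks, coding starts, summits inside the window and the nearest gene. Counting regions of a shared peak once was added after seeing the data. The code was tested on simulated data. Calculations ran in Python 3.11.15 with pysam 0.24.0, SciPy 1.17.1, pandas 2.3.3 and NumPy 2.4.6, and Matplotlib 3.10.9 drew the plots.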

Additional observations from a re-analysis of the deposited data

How the results depend on the processing

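All 10 genes kept a shared region at a start under every alternative run, 46 to 50 of the 52 other pathway genes did, and the share over all protein-coding genes ran from 62.6% to 69.3%. The receptor median at starts was 13.1 at coding starts only. The medians of ligands and Hey genes stayed at 12.8 and 42.0 in every alternative that kept both replicates. Most alternatives pick the same highest region, so these medians had little room to move. The counts of regions depend on how far a locus reaches. With the gene body alone they were 34 for receptors, 10 for ligands and 8 for Hey genes, with 25 kb on each side 49, 26 and 20, and with 100 kb on each side 95, 47 and 72. With a q-value of at most 1e-10 they were 27, 16 and 22. Counting only regions nearest to the gene gave 9 in place of 19 for *Heyl*, 4 in place of 10 for *Notch4*, 5 in place of 9 for *Dll4* and 11 in place of 17 for *Notch3*, and a reciprocal overlap of 50% gave 11 for *Heyl* and 11 for *Notch3*. Of single genes, *Notch4* was 5.62 and *Heyl* 8.91 at coding starts.

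With each replicate alone, the medians at starts ran from 21.5 to 22.8 for receptors, 12.1 to 13.6 for ligands and 41.0 to 43.0 for Hey genes, and the regions from 68 to 73, 36 to 37 and 46 to 47. Genes with a region were 10 of 10 and 49 of 52 in both cases and 68.6% to 68.8% of all. By locus, replicate 1 alone gave 20 regions for *Notch1* and replicate 2 alone gave 14 for *Hey2*, beside 12 and 9 shared. No paired analysis was possible because both samples belong to 1 group. Depth limits the weak regions most: a region of 12 reads has an interval from 6.20 to 21, so regions at 3 to 5 times background could not be ranked.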
